A study of Mus musculus with 2 samples.

Results

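The genes described are 9 enzymes of glucose breakdown and glucose synthesis in newborn mouse kidney: Hk1, Hk2, Pfkp, Aldoa, Pkm and Ldha from glycolysis, and Fbp1, Pck1 and G6pc from gluconeogenesis. They were chosen by symbol from the 32285 genes of the deposited feature lists, and all 9 were found. The data are single-cell RNA sequencing of kidney from postnatal day 0 in 2 libraries. Both carry the genotype label Rbpj c/+ ; Foxd1cre/+. Rbpj encodes the transcription factor through which Notch signals reach the DNA. Foxd1 is a gene of kidney stromal progenitors, and a Cre recombinase driven by it acts chiefly in the stromal lineage. Other genotypes were not analysed here, and every comparison is between cell types within this genotype, with n = 2 libraries named replicate 1 and replicate 2. The labels do not say whether a library came from 1 animal or from a pool. P-values measure only how differences between cell types varied between these libraries, with the overall difference between libraries taken out as a block.

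Glycolysis turns glucose into pyruvate in the cytosol and yields lactate when pyruvate is not passed to the mitochondria. Hexokinase, phosphofructokinase and pyruvate kinase catalyse its irreversible steps. Gluconeogenesis runs the reversible steps backwards and bypasses the irreversible ones with PEPCK, fructose-1,6-bisphosphatase and glucose-6-phosphatase. In the adult kidney the proximal tubule makes glucose and burns little of it, while distal segments depend on glycolysis. Nephron progenitors, the cells from which every nephron epithelium arises, are known for a glycolytic metabolism that declines as they differentiate.

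Replicate 1 held 5529 cells and replicate 2 held 4206, counted as barcodes that reached 3000 UMIs (unique molecular identifiers, 1 per captured transcript molecule) and 500 genes with a mitochondrial share of 20% or less. Their median depths were 15016 and 20007.5 UMIs, and 6 barcodes occurred in both libraries. The labels name no cell type beyond kidney. A cell was assigned to a cell type when at least 3 of its fixed markers stood above free RNA, none of them among the 9 genes. This placed 3999 and 2800 cells, while 1020 and 1070 cells met more than 1 gate and were left out. Nephron progenitors (markers such as Six2 and Cited1) numbered 737 and 408 cells, and proximal tubule cells (markers such as Slc34a1 and Lrp2) numbered 460 and 305. All 7 progenitor markers and all 10 proximal markers were detected in their own gate in both libraries. Summed proximal markers reached 5861 and 4751 CPM (counts scaled to the same total of UMIs) in the proximal gate against 27.0 and 26.2 CPM in progenitors. Progenitor markers reached 33.5 and 40.4 CPM in the proximal gate against 1965 and 2094 CPM in progenitors.

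Other properties moved with these cell types. Median depth was 28972 and 42127 UMIs in proximal cells against 18322 and 25041 in progenitors. The median mitochondrial share was 7.97% and 7.27% against 5.26% and 4.58%, and the sum of 10 genes of dividing cells was 360.1 and 355 CPM against 1095 and 804 CPM. The part of these differences in the results below was not tested. In counts summed over a cell type, fewer expressing cells and less RNA per cell cannot be told apart.

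Hk1 lies on chromosome 10 (62268855 to 62379908, minus strand), Hk2 on chromosome 6 (82725025 to 82774454, minus) and Pfkp on chromosome 13 (6579768 to 6648777, minus). Aldoa lies on chromosome 7 (126795234 to 126800751, minus), Pkm on chromosome 9 (59656368 to 59679375, plus) and Ldha on chromosome 7 (46841475 to 46855627, plus). Fbp1 lies on chromosome 13 (62864753 to 62888282, minus), Pck1 on chromosome 2 (173153048 to 173159273, plus) and G6pc on chromosome 11 (101367561 to 101377903, plus). All are protein-coding in the GENCODE M21 annotation of GRCm38. The symbol Aldoa belongs to 2 identifiers, and the values here are those of ENSMUSG00000030695, since the other held only 76 and 45 UMIs. The counts are per gene from the 3' end of transcripts, so splice forms such as the M1 and M2 forms of Pkm could not be told apart.

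RefSeq (GRCm38.p6) promoter windows were found for all 9 genes, and the 250 bases before the start were searched for 6 motifs on both strands. The stretches shown are those of the 3 gluconeogenic genes, all highest in proximal tubule, and of Hk2 and Ldha. The latter are glycolytic genes that went in opposite directions between progenitors and proximal tubule. Capitals mark motif matches, the sequences read 5′ to 3′ on the gene's strand, and the stretches of Pck1 and G6pc end before the first annotated exon.
Fbp1, chr13:62888283-62888532, minus strand: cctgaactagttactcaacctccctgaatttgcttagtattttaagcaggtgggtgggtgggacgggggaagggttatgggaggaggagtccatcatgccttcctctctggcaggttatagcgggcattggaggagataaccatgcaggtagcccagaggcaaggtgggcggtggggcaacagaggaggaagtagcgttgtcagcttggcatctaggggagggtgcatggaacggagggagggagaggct
Pck1, chr2:173152823-173153047, plus strand: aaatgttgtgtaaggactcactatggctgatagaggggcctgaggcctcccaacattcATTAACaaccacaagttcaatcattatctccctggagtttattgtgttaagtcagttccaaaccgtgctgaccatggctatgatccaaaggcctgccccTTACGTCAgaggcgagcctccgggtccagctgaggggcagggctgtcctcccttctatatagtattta
G6pc, chr11:101367466-101367560, plus strand: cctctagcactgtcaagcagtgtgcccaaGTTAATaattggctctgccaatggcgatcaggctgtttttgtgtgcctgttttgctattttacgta
Hk2, chr6:82774455-82774704, minus strand: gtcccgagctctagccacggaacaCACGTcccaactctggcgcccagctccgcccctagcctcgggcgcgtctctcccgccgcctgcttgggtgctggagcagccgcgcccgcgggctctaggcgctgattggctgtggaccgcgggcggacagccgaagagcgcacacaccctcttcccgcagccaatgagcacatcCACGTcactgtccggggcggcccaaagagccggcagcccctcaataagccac
Ldha, chr7:46845554-46845803, plus strand: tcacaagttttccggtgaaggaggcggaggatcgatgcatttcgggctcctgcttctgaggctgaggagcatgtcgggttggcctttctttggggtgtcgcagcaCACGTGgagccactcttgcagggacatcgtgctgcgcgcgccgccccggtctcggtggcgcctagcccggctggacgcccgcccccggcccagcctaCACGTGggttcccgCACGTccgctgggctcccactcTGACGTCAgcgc

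The half-site of the tubular factor HNF1 (GTTAAT, read on either strand) was found in Pck1 and G6pc and in 6.47% of 32536 promoter windows. The cyclic AMP response element in the form TTACGTCA was found in Pck1 alone among the 9 genes and in 0.449% of windows, and its palindromic form TGACGTCA in Ldha and in 1.56% of windows. The hypoxia-inducible factor core ACGTG was found in Hk2, Aldoa, Pkm and Ldha and in 16.7% of windows. Ldha also held CACGTG, which contains that core and occurred in 6.04% of windows. In Hk2 the core appears only on the opposite strand, in the stretch shown as CACGT. In G6pc the TATA box (TATAAA) was found in the bases not shown, and in 12.3% of windows. None of these motifs was found in the window of Fbp1. Hk1, Aldoa, Pkm and Ldha have more than 1 RefSeq start, and a match in any window was counted. A match describes letters and is no evidence of binding.

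From nephron progenitors to proximal tubule, the 9 genes split in 3 ways. The gluconeogenic enzymes Fbp1, Pck1 and G6pc were higher in proximal tubule by 6.99 to 7.59 on the log2 scale. The hexokinases Hk1 and Hk2 and the pyruvate kinase Pkm were lower, by 2.06 to 4.54. The intermediate enzymes Pfkp and Aldoa and the lactate dehydrogenase Ldha, although glycolytic, were higher in proximal tubule. All 9 differences passed an adjusted p of 0.05 in edgeR's quasi-likelihood test, but so did 62.4% of the 16643 genes tested (30.8% higher and 31.7% lower), so the sizes carry more than the count. The median log2 fold change of all genes was -0.07.

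Hk1 and Hk2 encode hexokinases, which trap glucose in the cell as glucose 6-phosphate. Hk1 had 30.4 and 29.1 CPM in progenitors and 1.74 and 3.63 CPM in proximal tubule, a log2 fold change of -3.37 (SE 0.24, adjusted p = 4.2e-11). Hk2 had 36.5 and 30.2 CPM in progenitors and 0.759 and 1.88 CPM in proximal tubule, a log2 fold change of -4.54 (SE 0.37, adjusted p = 4.8e-10). For both genes every progenitor value was above every proximal value. Within single libraries the log2 difference was larger in replicate 1 (-3.93 for Hk1, -5.37 for Hk2) than in replicate 2 (-2.92 and -3.92).

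Pkm encodes the pyruvate kinase of most tissues, the last step of glycolysis. It had 214 and 269 CPM in progenitors and 47.1 and 57.7 CPM in proximal tubule (log2 fold change -2.06, SE 0.15, adjusted p = 7.3e-11). Thus Hk1 and Hk2 at the entry and Pkm at the exit of the pathway were lower in proximal tubule, without overlap between the libraries.

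The other 3 glycolytic members were higher in proximal tubule. Pfkp, the platelet-type phosphofructokinase, had 2.18 and 2.37 CPM in progenitors and 37.0 and 48.1 CPM in proximal tubule (log2 fold change 4.34, SE 0.22, adjusted p = 1.7e-13). Aldoa, which splits fructose 1,6-bisphosphate and also works in the reverse direction, had 151 and 158 CPM in progenitors and 434 and 360.3 CPM in proximal tubule (log2 fold change 1.53, SE 0.16, adjusted p = 3.9e-08). Ldha, which interconverts pyruvate and lactate, had 183 and 213 CPM in progenitors and 421 and 339 CPM in proximal tubule (log2 fold change 1.12, SE 0.21, adjusted p = 7.1e-05). All 3 were higher in proximal tubule in both libraries, and Pfkp was the only one of them that was scarce in progenitors. The other phosphofructokinase genes did not rise with Pfkp: Pfkm was lower (log2 fold change -0.91, adjusted p = 0.00036) and Pfkl did not pass (0.15, adjusted p = 0.495).

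Fbp1 encodes fructose-1,6-bisphosphatase, the enzyme opposed to phosphofructokinase. It had 2.92 and 2.86 CPM in progenitors and 463 and 564 CPM in proximal tubule (log2 fold change 7.59, SE 0.25, adjusted p = 3.6e-16). Pck1, the cytosolic PEPCK that makes phosphoenolpyruvate from oxaloacetate, had 1.31 and 3.23 CPM in progenitors and 237 and 432 CPM in proximal tubule (log2 fold change 7.41, SE 0.26, adjusted p = 1.1e-15). Of Fbp1, Pck1 and G6pc, Pck1 had the proximal level that differed most between the libraries. G6pc, the catalytic subunit of glucose-6-phosphatase that releases free glucose, had 0.087 and 0.791 CPM in progenitors, from 2 and 13 counts, and 40.1 and 53.1 CPM in proximal tubule (log2 fold change 6.99, SE 0.36, adjusted p = 2.4e-13). The pooled ratio of G6pc was 120.8 with a 95% counting interval of 73.0 to 216.3, and the log2 difference was 8.76 in replicate 1 and 6.11 in replicate 2. The progenitor level thus rests on 15 counts in all.

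**Figure D1:**
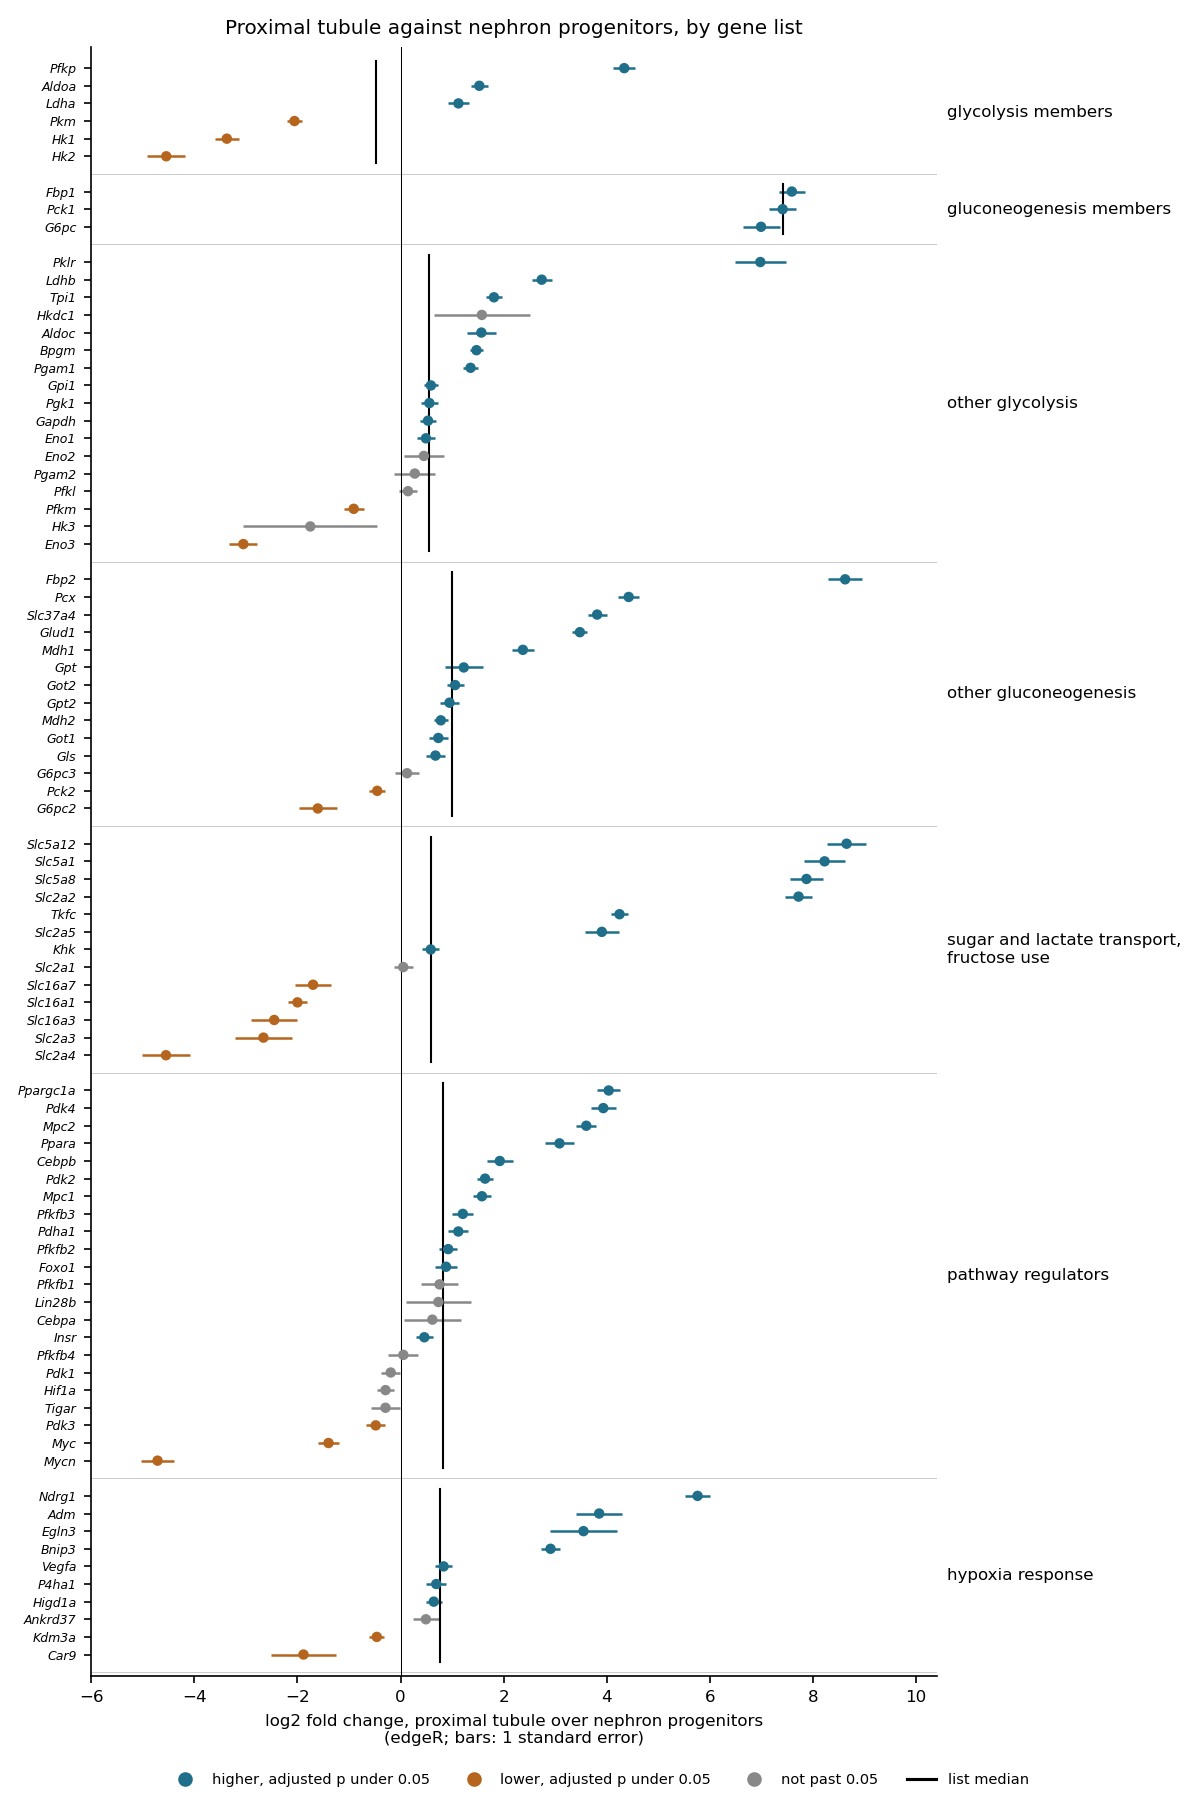
Log2 fold change of proximal tubule over nephron progenitors on the horizontal axis for the genes shown, in rows grouped by list, with bars of 1 standard error and vertical lines at list medians. Fbp1, Pck1 and G6pc sit between 6.99 and 7.59, while the 6 glycolytic members lie on both sides of 0, from -4.54 for Hk2 to 4.34 for Pfkp.

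Other genes encode isoenzymes of the same steps. The hexokinase genes Hk3 and Hkdc1 were near 0, at no more than 0.271 CPM in either cell type, and neither passed the test. The sum of Hk1, Hk2, Hk3 and Hkdc1 was 63.4 CPM ± 5.27 (SD, n = 2) in progenitors and 4.26 CPM ± 2.04 in proximal tubule. For pyruvate kinase, Pklr, the liver and red-cell enzyme, was at trace level in progenitors (0.262 and 0.183 CPM) and at 25.4 and 30.5 CPM in proximal tubule (log2 fold change 6.98, SE 0.49, adjusted p = 3.5e-10). Ldhb, the heart-type lactate dehydrogenase, rose from 142 and 147 CPM to 851 and 889 CPM (log2 fold change 2.74, SE 0.19, adjusted p = 4.3e-11).

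Among the gluconeogenic isoenzymes, Fbp2, the muscle-type bisphosphatase, had 0.305 and 0.304 CPM in progenitors and 116 CPM in the proximal tubule of each library (log2 fold change 8.62, SE 0.33, adjusted p = 5.8e-15). Pck2, the mitochondrial PEPCK, was slightly lower in proximal tubule (19.1 and 18.7 against 12.3 and 12.8 CPM, log2 fold change -0.45, adjusted p = 0.0135). G6pc2 was lower too (7.28 and 6.75 against 1.84 and 2.33 CPM, log2 fold change -1.60, adjusted p = 0.00069), and G6pc3, the widely expressed form, did not pass the test (log2 fold change 0.13, adjusted p = 0.648). Of the phosphofructokinases, Pfkl did not pass (log2 fold change 0.15, adjusted p = 0.495) and Pfkm fell by 0.91 on the log2 scale (adjusted p = 0.00036). Aldoc was higher by 1.57 (adjusted p = 5.1e-05).

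Of 19 other glycolytic genes tested, 11 were higher in proximal tubule, 2 were lower and 6 did not pass. Over all genes tested in this comparison, 30.8% were higher and 31.7% were lower. The median log2 fold change of the 19 was 0.56 beside -0.07 for all genes. Genes past a log2 fold change of 2 included Pklr and Ldhb, given above, and Eno3, the muscle enolase, which fell by 3.05 (adjusted p = 2.5e-09). Of 14 other gluconeogenic genes, 11 were higher, 2 lower (Pck2 and G6pc2) and 1 did not pass, with a median of 1.005. They included Pcx, the pyruvate carboxylase that starts the pathway (13.0 and 10.3 against 267 and 188 CPM, log2 fold change 4.43), and Slc37a4, which carries glucose 6-phosphate to glucose-6-phosphatase (7.85 and 9.80 against 111 and 112 CPM, 3.81). Glud1, which feeds glutamate carbon into the pathway, was higher by 3.48, and the cytosolic malate dehydrogenase Mdh1 by 2.37.

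Transport genes differed in both directions: 7 of 13 were higher, 5 were lower and 1 did not pass. All genes tested gave 30.8% higher and 31.7% lower. Slc2a2, the GLUT2 carrier through which glucose leaves the tubule cell, had 0.785 and 0.730 CPM in progenitors and 165 and 129.6 CPM in proximal tubule (log2 fold change 7.72, SE 0.26). The apical lactate carriers Slc5a12 and Slc5a8 were higher by 8.65 and 7.87, the glucose carrier Slc5a1 by 8.22 and the fructose carrier Slc2a5 by 3.90. Tkfc, which phosphorylates glyceraldehyde from fructose, was higher by 4.25. The facilitative carriers Slc2a4 and Slc2a3 fell by 4.55 and 2.66, and the lactate exporter Slc16a3 fell by 2.45. Slc2a1, the GLUT1 carrier, had 12.7 and 14 CPM in progenitors and 10.9 and 14.6 CPM in proximal tubule and did not pass (log2 fold change 0.05, adjusted p = 0.826).

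Of 22 regulators tested, 12 were higher, 3 were lower and 7 did not pass, beside 62.4% of all genes called (30.8% higher, 31.7% lower). Mycn, a transcription factor of the Myc family, had 71.9 and 42.5 CPM in progenitors and 2.22 and 1.62 CPM in proximal tubule (log2 fold change -4.71, SE 0.32). Ppargc1a, a coactivator of gluconeogenic and mitochondrial genes, had 5.45 and 8.82 against 117 and 94.2 CPM (log2 fold change 4.04, SE 0.23). Ppara, a nuclear receptor of fatty acid oxidation, was higher by 3.08. Pdk4, a kinase that holds pyruvate dehydrogenase inactive, was higher by 3.93, and Mpc2, a subunit of the mitochondrial pyruvate carrier, by 3.60. Hif1a itself did not pass (log2 fold change -0.29, adjusted p = 0.122), while 7 of 10 hypoxia response genes were higher and 2 were lower. Those past a log2 fold change of 2 were Ndrg1 (5.76), Adm (3.85), Egln3 (3.55) and Bnip3 (2.91), with Adm at no more than 2.98 CPM. The value of Egln3 was 2.30 in replicate 1 and 4.58 in replicate 2. Both are past 2, but its rank among these genes depends on the library. When every cell was thinned to 3000 UMIs the call of Adm was lost (log2 fold change 1.70, adjusted p = 0.16).

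Cell types between progenitors and proximal tubule, as their markers define them, were compared next. Early nephron cells (134 and 48 cells, markers such as Wnt4 and Lhx1) differed from progenitors in 2 of the 9 genes beside 27.6% of all genes. Pfkp was already higher, at 15.3 and 19.3 CPM (log2 fold change 2.75, SE 0.25, adjusted p = 1.9e-08). Hk1 was lower, at 17.6 and 18.8 CPM (log2 fold change -0.86, SE 0.22, adjusted p = 0.00592). Hk2 did not pass the test, at 44.8 and 37.6 CPM (log2 fold change 0.17, adjusted p = 0.715), and neither did the 3 gluconeogenic genes. The genes of dividing cells summed to 2139.7 and 1652 CPM in early nephron cells, above progenitors in both libraries. Loop of Henle markers summed to 118 and 271 CPM in early nephron cells, against 16.1 and 22.7 CPM in progenitors. Proximal markers summed to 51.1 and 35.8 CPM, against 27.0 and 26.2 CPM. The part of dividing cells and of this mix in these differences, that of Pfkp included, was not tested.

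Proximal precursors (50 and 30 cells that met markers such as Cdh6 and Hnf4a but not the proximal gate) differed from progenitors in 7 of the 9 genes beside 26.7% of all genes. Loop of Henle markers summed to 274 and 328 CPM in this gate against 16.1 and 22.7 CPM in progenitors. Proximal markers summed to 380 and 340 CPM in it. The part of this mix in the values of the precursor gate was not tested. Pfkp had 30.2 and 29.6 CPM there (log2 fold change 3.50, SE 0.28, adjusted p = 3e-09), next to 37.0 and 48.1 CPM in proximal tubule. Hk2 had 5.71 and 15.2 CPM (log2 fold change -1.90, adjusted p = 0.00224), Hk1 8.15 and 14.3 CPM (-1.63, adjusted p = 0.0004) and Pkm 123 and 184 CPM (-0.88, adjusted p = 0.00014). Fbp1 had 13.9 and 17.0 CPM (log2 fold change 2.18, adjusted p = 6.1e-05) and Pck1 3.26 and 14.3 CPM (1.72, adjusted p = 0.00726), both far below proximal tubule. Ldha was lower than in progenitors, at 127 and 165 CPM (-0.65, adjusted p = 0.0346). With cells thinned to 3000 UMIs, the calls of Hk1 (adjusted p = 0.33), Hk2 (0.064), Fbp1 (0.25), Pck1 (0.28) and Ldha (0.19) were lost. Those of Pfkp and Pkm were kept.

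From precursors to proximal tubule all 9 genes passed the test beside 31.6% of all genes. Fbp1 was higher by 5.40 (SE 0.26), Pck1 by 5.69 (SE 0.30) and G6pc by 5.53 (SE 0.54), the last against only 3 precursor counts, a ratio of 35.9 with a counting interval of 12.3 to 174. Ldha was higher by 1.77 and Aldoa by 1.41. Hk2 fell by 2.64, Hk1 by 1.73 and Pkm by 1.18 on the log2 scale. After thinning, Pkm differed by only -0.09 (adjusted p = 0.95) and Pfkp by 0.10 (adjusted p = 0.96), and the calls of Hk1 and Hk2 were lost as well (adjusted p = 0.20 and 0.19).

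**Figure D2:**
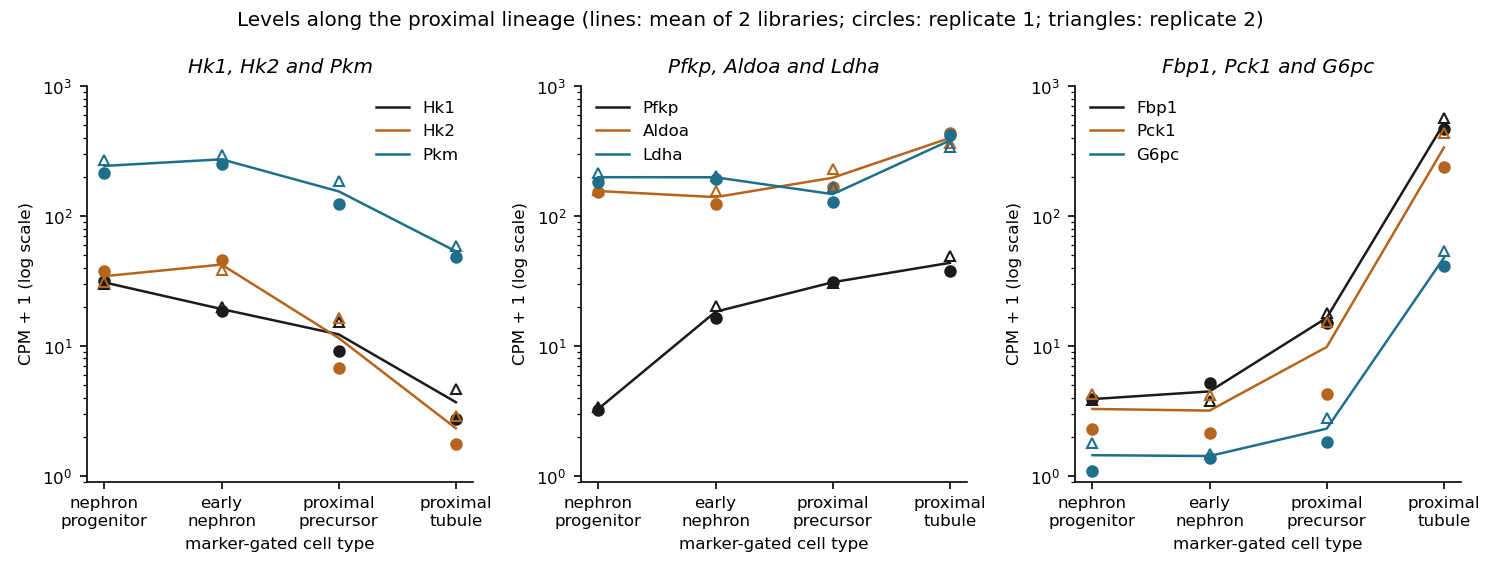
Level in CPM + 1 on a log axis along 4 marker-gated cell types, with lines through the mean of 2 libraries, circles for replicate 1 and triangles for replicate 2. Pfkp is already raised in early nephron cells, at 15.3 and 19.3 CPM, while Fbp1, Pck1 and G6pc reach their high levels only in proximal tubule.

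Within the proximal gate the genes were also followed by how many of the 10 proximal markers a cell showed at 10000 UMIs. This is a description over 427 of 460 and 290 of 305 cells, with no test, because cells are not replicates. Only 32 and 38 of these cells had 0 to 3 markers, so low values there rest on few UMIs. Fbp1 went from 43.8 and 26.3 CPM in cells with 0 to 3 markers, through 163 and 296 CPM with 4 to 6, to 740.3 and 981 CPM with 7 to 10. Pck1 went from 31.2 and 21.1 CPM through 75.3 and 191 CPM to 353 and 768 CPM. G6pc went from 0 in both libraries through 2.87 and 14.3 CPM to 69.7 and 126 CPM. Aldoa climbed as well, from 269 and 216 CPM through 307 and 267 CPM to 560 and 414 CPM. So did Ldha, from 203 and 292 CPM through 291 and 329 CPM to 531 and 364 CPM. Pkm went down, from 112.5 and 86.8 CPM through 70.1 and 68.8 CPM to 28.5 and 24.3 CPM, in the same order in both libraries. Pfkp had 37.5 and 55.3 CPM in the cells with the fewest markers and 35.7 and 46.4 CPM in those with the most, with no such course. Hk1 and Hk2 each had 6.25 and 13.2 CPM in the cells with the fewest markers. In those with the most, Hk1 had 1.81 and 0.714 CPM and Hk2 0 and 1.43 CPM, all from few UMIs.

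**Figure D3:**
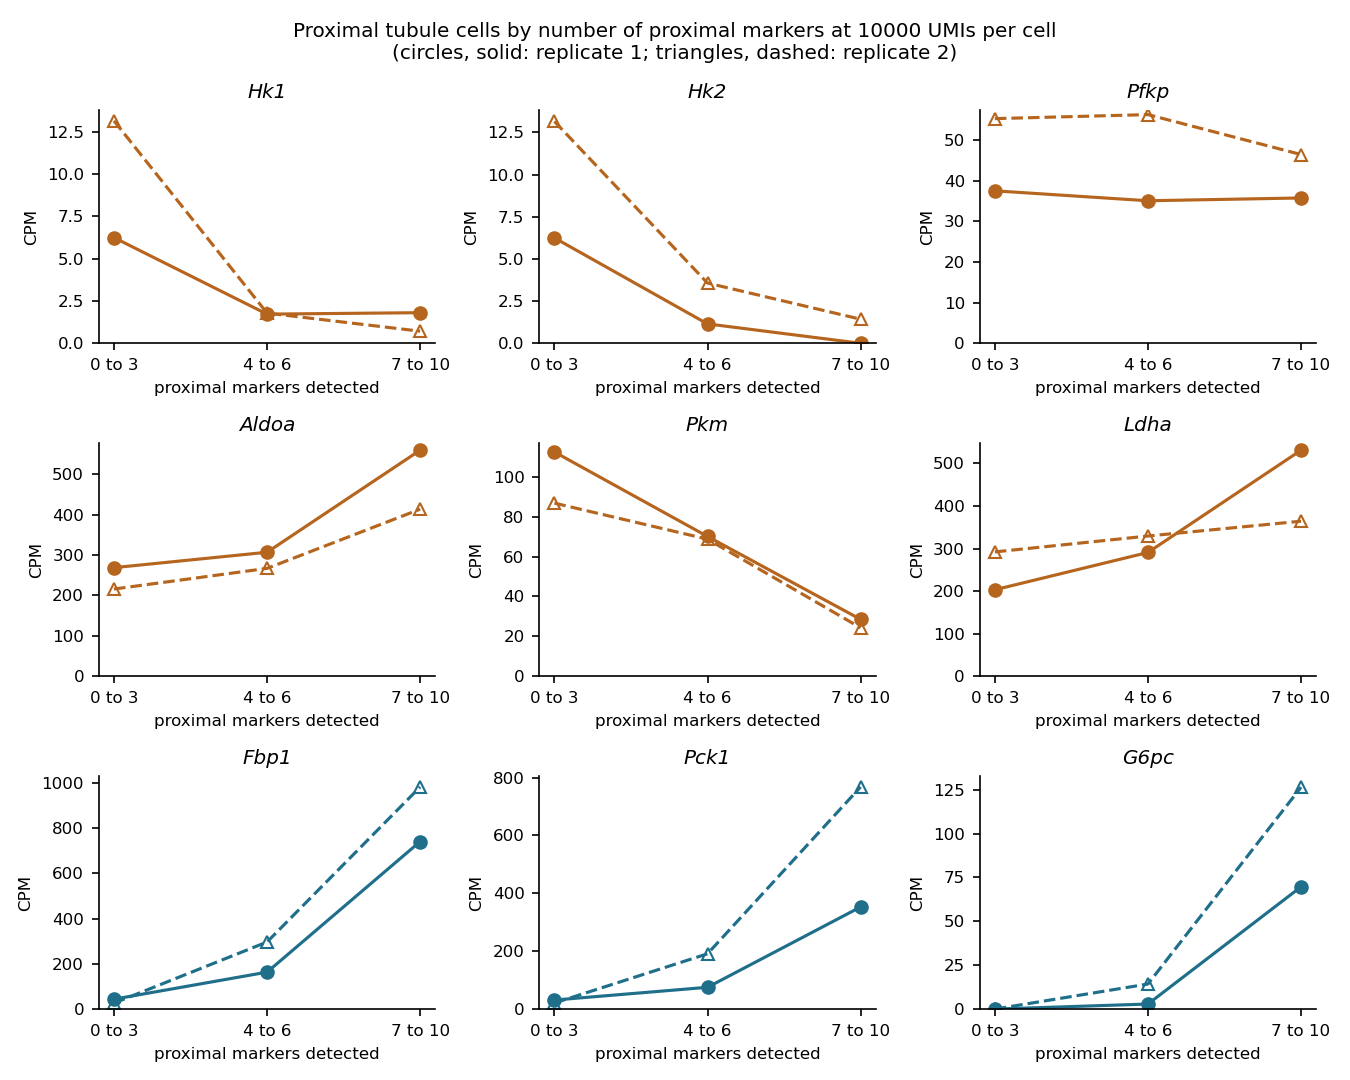
CPM of each gene in proximal tubule cells with 0 to 3, 4 to 6 or 7 to 10 proximal markers detected at 10000 UMIs per cell, by library. Fbp1, Pck1 and G6pc climb with marker number in both libraries, and so do Aldoa and Ldha. Pkm falls from 112.5 and 86.8 CPM to 28.5 and 24.3 CPM, and Pfkp stays near its starting level.

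Across all 14 cell types with at least 20 cells in each library, the gluconeogenic genes were concentrated in proximal tubule. Fbp1 was higher in proximal tubule than in each of the 13 other cell types, by 5.40 to 7.71 on the log2 scale, Pck1 by 5.69 to 7.67 and G6pc by 5.52 to 7.52. In these 13 comparisons between 31.6% and 63.2% of all genes were called. Outside proximal tubule and its precursors the highest mean Fbp1 levels were in macrophages, at 16.4 and 6.28 CPM, and in the loop of Henle, at 7.14 and 8.90 CPM, ranges that overlapped. Both were above progenitors (log2 fold change 2.09 and 1.53, adjusted p = 8.9e-05 and 1.6e-05), but the call in the loop was lost after thinning (adjusted p = 0.30). Endothelium, which should lack Fbp1, had 3.77 and 4.89 CPM, and the macrophage value of replicate 2 was close to that. Free RNA was estimated from haemoglobin after leaving out the 5% of cells of each type with the highest haemoglobin share. By this estimate it would account for 0.784 and 0.489 CPM in endothelium, 0.963 and 0.518 CPM in macrophages and 0.465 and 0.418 CPM in the loop. The estimate depends strongly on that step. Endothelial haemoglobin was 1739 and 2065 CPM over all cells and 96.5 and 98.8 CPM after it. The source of the Fbp1 UMIs outside proximal tubule was not tested. Pck1 was above progenitors in distal tubule, mural cells and stroma (log2 fold change 1.72, 1.23 and 0.88), at no more than 7.2 CPM, and all 3 calls were lost after thinning and without the replicate block. G6pc had at most 15 counts in any cell type other than proximal tubule, over both libraries. For collecting duct, with 3 counts, the proximal level was 160.3 times higher (counting interval 54.8 to 778).

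Fbp1 and Pck1 were not in the same proportion in every cell type. Fbp1 made up 66.1% (95% exact interval 65.3 to 66.9) of their joint counts in proximal tubule of replicate 1 and 56.6% (55.8 to 57.4) in replicate 2. In barcodes under 100 UMIs, which hold free RNA, the shares were 67.6% and 51.4%. In the loop of Henle they were 81.4% (72.3 to 88.6) and 64.3% (56.3 to 71.8), above the free RNA share in both libraries, although the intervals touch in replicate 1, where that of free RNA is 62.2 to 72.6. The loop interval of replicate 2 holds the proximal share of that library. Mural cells went the other way, at 33.3% (13.3 to 59.0) and 34.6% (17.2 to 55.7), from few counts. Their interval in replicate 2 holds the free RNA share. These intervals cover counting error only, and the source of the UMIs outside proximal tubule was not tested.

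Hk1 had its highest levels in the distal nephron. Distal tubule had 211 and 293 CPM and the loop of Henle 193 and 244 CPM, ranges that overlapped, followed by intercalated cells at 128 and 142 CPM and collecting duct at 119 and 125 CPM. Against progenitors the log2 fold change was 3.28 (SE 0.20, adjusted p = 8.9e-12) in distal tubule and 2.94 (SE 0.20, adjusted p = 2.8e-11) in the loop. Endothelium had 70.6 and 75.4 CPM (log2 fold change 1.35, adjusted p = 2.6e-06), while podocytes were below progenitors at 14.9 and 12.3 CPM. Proximal tubule was last of the 14, lower than each of the 13 others by 1.73 to 6.65 on the log2 scale. After thinning, the calls against early nephron cells (log2 fold change -1.05, adjusted p = 0.45) and against precursors were lost. The largest of the 13 differences was from distal tubule.

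Hk2 had a different order. Macrophages had 104 and 73.3 CPM, above progenitors (log2 fold change 1.44, SE 0.30, adjusted p = 0.00035). Intercalated cells had 48.1 and 62.8 CPM, the ureteric tip 49.1 and 47.0 CPM and early nephron cells 44.8 and 37.6 CPM. The call of intercalated cells above progenitors (log2 fold change 0.84, adjusted p = 0.0446) was lost under 6 alternatives, with adjusted p up to 0.20. The lowest levels were in endothelium (1.47 and 0.453 CPM), proximal tubule, podocytes (2.45 and 0.707 CPM) and distal tubule (2.67 and 1.80 CPM), whose neighbouring ranges overlapped. Proximal tubule was lower in Hk2 than 10 of the 13 other cell types. Not all of these calls held: over the alternatives, that against collecting duct reached an adjusted p of 0.1. The call against precursors was lost after thinning, as given above.

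The mix of hexokinase transcripts also differed between cell types. Of the summed counts of Hk1, Hk2, Hk3 and Hkdc1, Hk1 made up 45.3% and 48.9% in progenitors, 27.9% and 32.0% in early nephron cells, 97.3% and 97.2% in the loop of Henle and 97.7% and 99.2% in endothelium. In macrophages it made up 9.96% and 18.0%, beside 58.2% and 57.4% of Hk2 and the myeloid gene Hk3 at 57.0 and 31.4 CPM. Hkdc1 was found mainly in collecting duct (15.05 and 17.5 CPM) and intercalated cells (22.6 and 16.6 CPM). These shares compare cell types, since genes may differ in how well their 3' ends are captured. The sum of these 4 genes was 261 CPM ± 56.1 (SD, n = 2) in distal tubule and 225 CPM ± 37.0 in the loop of Henle, beside 4.26 CPM ± 2.04 in proximal tubule.

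**Figure D4:**
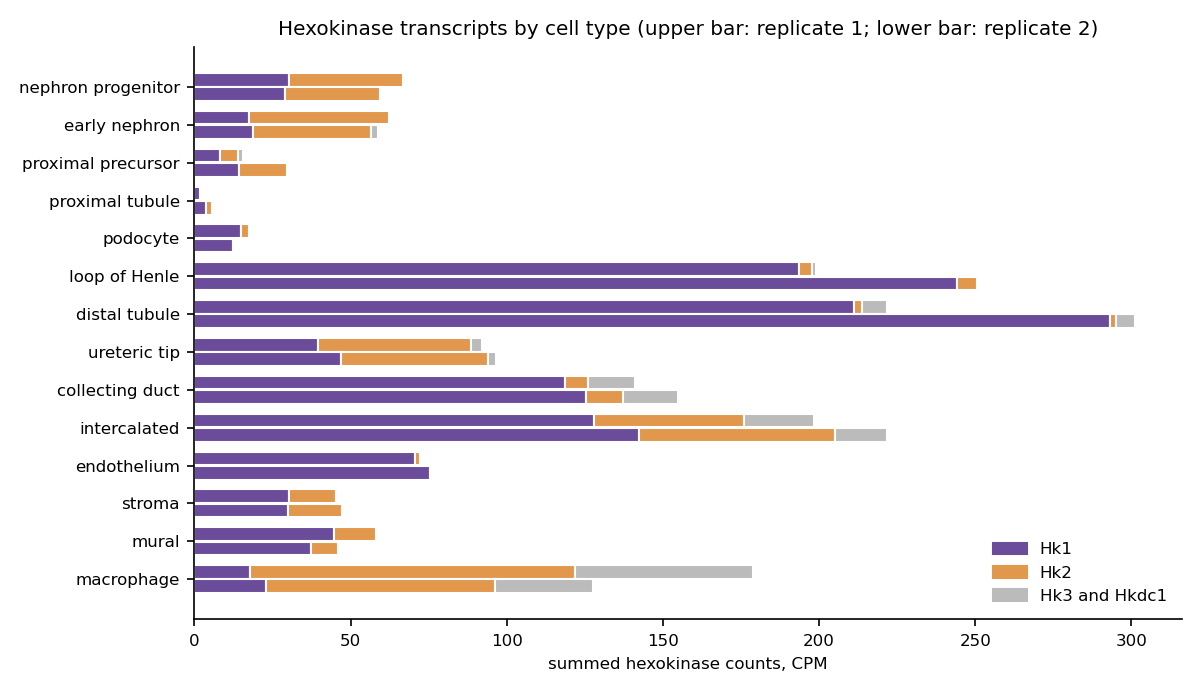
Summed counts of 4 hexokinase genes in CPM per cell type, the upper bar of each pair for replicate 1 and the lower for replicate 2, divided into Hk1, Hk2 and the pair Hk3 and Hkdc1. Loop of Henle and distal tubule carry the highest sums, almost all Hk1, and proximal tubule the lowest, at 2.82 and 5.70 CPM.

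The later glycolytic genes also had high levels in distal segments. Pfkp was highest in distal tubule (143 and 131 CPM) and the loop of Henle (87.7 and 117 CPM), lowest in progenitors, and higher than progenitors in all 13 other cell types, from 0.90 to 6.07 on the log2 scale. The calls of Pfkp in podocytes, stroma and ureteric tip were lost after thinning (adjusted p = 0.11, 0.064 and 0.77). Aldoa was highest in intercalated cells (1001 and 1315 CPM), distal tubule (868 and 991 CPM) and the loop (802 and 947 CPM). Pkm was highest in intercalated cells (371 and 461 CPM) and distal tubule (329.6 and 493 CPM), whose ranges overlapped with those of macrophages, loop and collecting duct. Proximal tubule had less Pkm than each of the 13 others, by 1.18 to 3.01 on the log2 scale.

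In the loop of Henle, 5 of the 6 glycolytic members were higher than in progenitors and Hk2 was lower, beside 57.6% of all genes called. The same counts held in distal tubule, beside 53.2%, and all 6 were higher in intercalated cells, beside 46.3%. Of these, the call of Hk2 in intercalated cells was lost under 6 alternatives, as given above. The rise of Pkm in the loop (log2 fold change 0.71, SE 0.14, adjusted p = 0.00019) was lost when cells above 10% mitochondrial UMIs were left out (0.32, adjusted p = 0.051). The median mitochondrial share in the loop was 12.3% and 11.3%, above both progenitors and proximal tubule. Of the 19 other glycolytic genes, 14 were higher and 1 was lower than in progenitors in the loop, and likewise in distal tubule, with medians of 1.14 and 0.97.

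Ldha followed neither group. It was highest in intercalated cells (275 and 555 CPM), proximal tubule (421 and 339 CPM) and the loop of Henle (332 and 354 CPM), ranges that overlapped. Proximal tubule did not differ from the loop beyond the test's threshold (log2 fold change 0.25, SE 0.21, adjusted p = 0.373) or from distal tubule (0.37, SE 0.21, adjusted p = 0.179). Podocytes had the least, at 52.3 and 66.9 CPM, below progenitors by 1.74 on the log2 scale (SE 0.22, adjusted p = 8e-07). Podocytes also had less Hk1, Hk2 and Pkm than progenitors (log2 fold change -1.11, -4.25 and -0.64) and more Aldoa (0.64) and Pfkp (1.47). The call of Pkm was lost without the replicate block (adjusted p = 0.081) and that of Pfkp after thinning (adjusted p = 0.11).

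**Figure D5:**
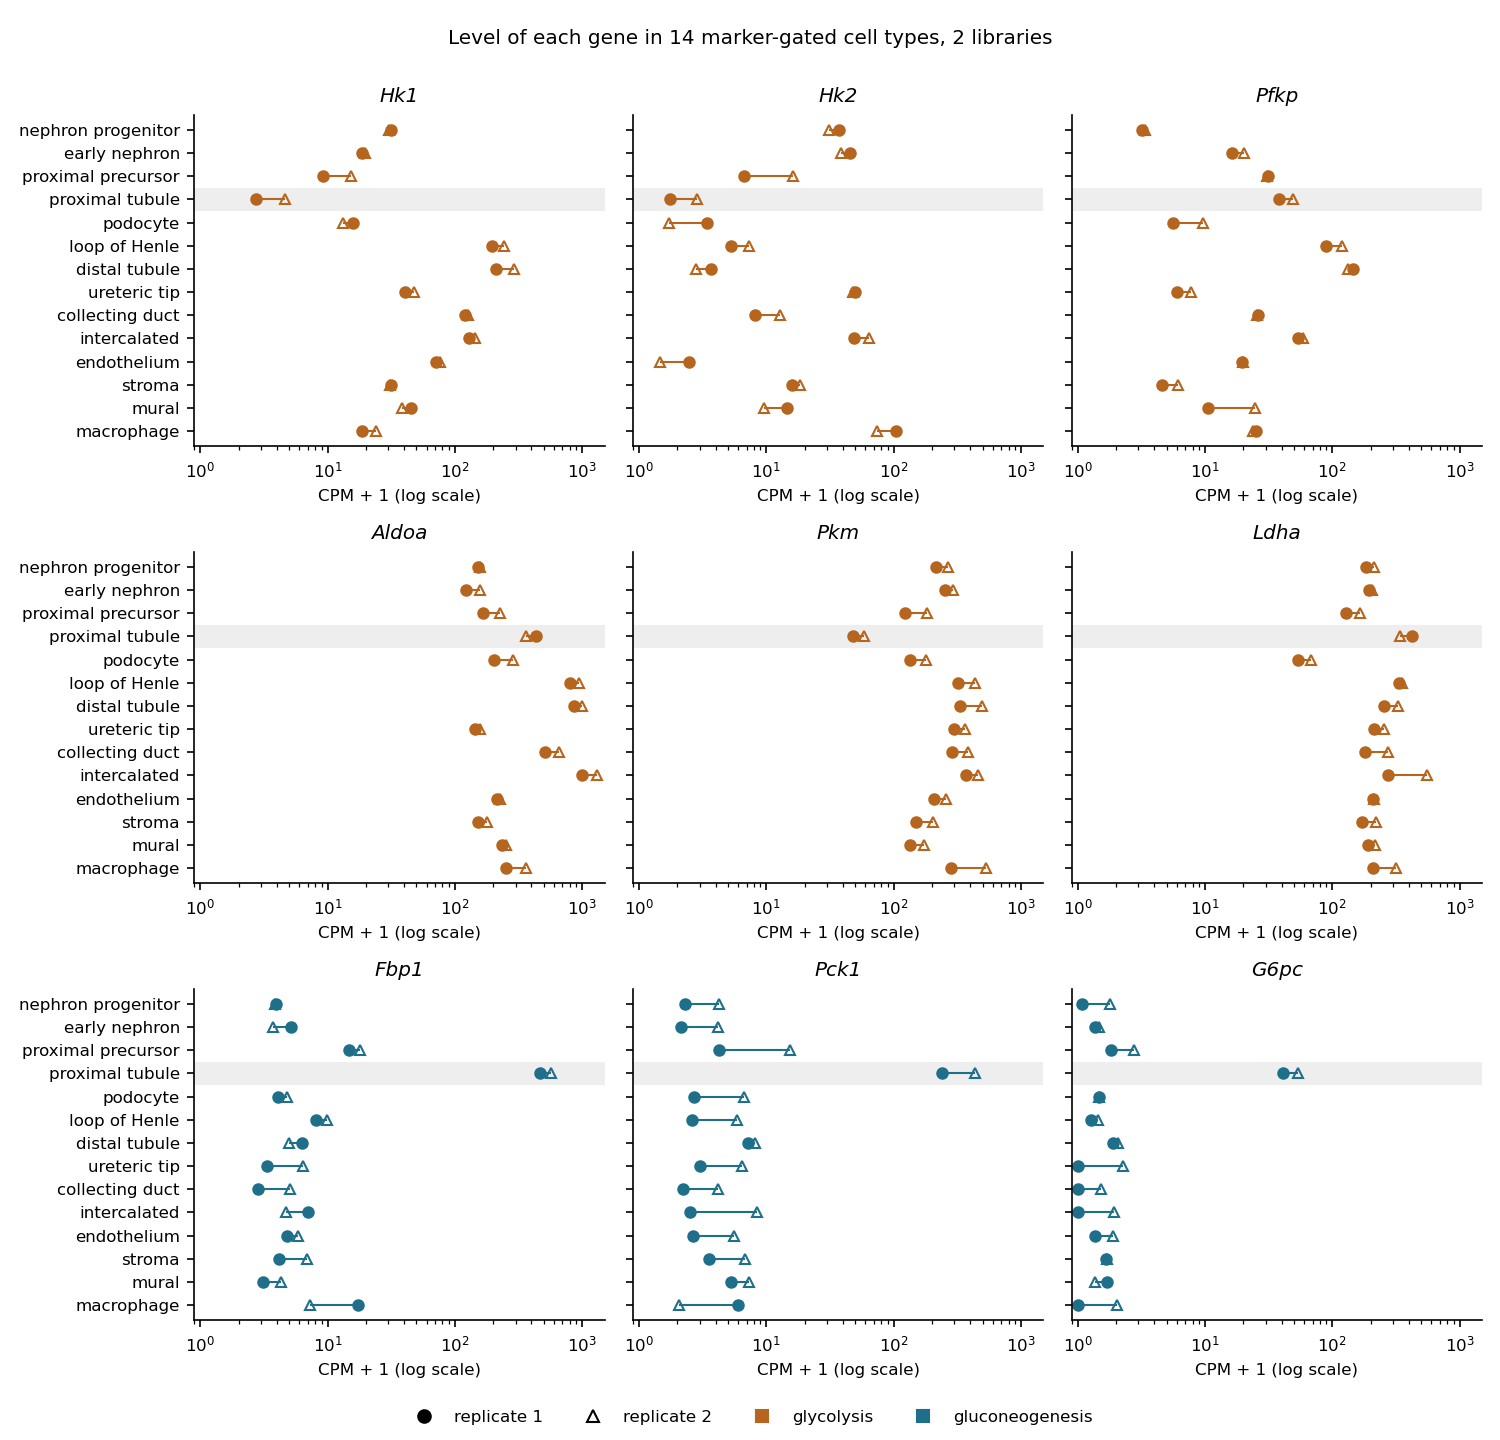
Level of each gene in CPM + 1 on a log axis in 14 marker-gated cell types, with a circle for replicate 1, a triangle for replicate 2 and a line between them, and proximal tubule shaded. Fbp1, Pck1 and G6pc stand far to the right in proximal tubule, while Hk1 and Pkm have their lowest levels there and Pfkp its lowest level in nephron progenitors.

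Counted over cell types, 59 of 108 comparisons of a member with progenitors passed the test when proximal tubule was set aside. The ureteric tip differed in 1 of the 9 genes beside 34.4% of all genes, endothelium in 4 beside 54.5% and stroma in 4 beside 39.4%. Mural cells differed in 5 beside 40.7%, collecting duct in 5 beside 49.8%, macrophages in 5 beside 50%, and podocytes in 6 beside 49.7%. Set against proximal tubule, the same 12 cell types gave 100 of 108. All 9 genes differed from early nephron cells beside 52.6% of all genes, from ureteric tip beside 50.6%, from stroma beside 60.2%, from mural cells beside 55.8% and from macrophages beside 51.9%. Of the 9, 8 differed from podocytes beside 53.3%, from the loop of Henle beside 40.9%, from collecting duct beside 43.2% and from endothelium beside 63.2%. From distal tubule 7 differed beside 40.6%, and from intercalated cells 7 beside 35.1%.

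At the level of single cells, each cell was thinned to 3000 UMIs so that depth did not set the share with a UMI. Fbp1 was detected in 57.6% (95% exact interval 52.9 to 62.2) and 61.3% (55.6 to 66.8) of proximal cells and in 1.09% and 1.23% of progenitors. Endothelium, which should lack the gene, gave 1.61% and 2.18%, at median depths before thinning of 10546 and 12979 UMIs. The progenitor share did not stand above that of endothelium in either library, and the source of these UMIs was not tested. Pck1 was detected in 36.7% and 44.9% of proximal cells, 0.543% and 0.980% of progenitors and 0.880% and 2.69% of endothelial cells. G6pc was detected in 8.48% and 11.5% of proximal cells and at most 0.336% of progenitors or endothelial cells. Without thinning, the proximal shares were 84.6% and 85.2% for Fbp1, 70.9% and 79.7% for Pck1 and 31.3% and 37.7% for G6pc.

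The hexokinases showed the reverse. Hk1 was detected in 9.50% and 8.82% of thinned progenitors and 1.09% and 0.656% of proximal cells. Hk2 was detected in 11.3% and 8.58% of progenitors. Among thinned proximal cells it was found in 0 of 460, where a count of 0 allows up to 0.652% of cells with a UMI at this depth, and in 1 of 305. Without thinning, 3.04% and 7.87% of the same proximal cells held an Hk2 UMI, against 52.9% and 47.1% of progenitors. In the loop of Henle, 44.0% and 51.4% of thinned cells held an Hk1 UMI. Pkm was detected in 43.4% and 50.2% of progenitors and 12.6% and 15.4% of proximal cells.

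All 3 gluconeogenic genes were found together in 6.30% and 9.84% of thinned proximal cells and in 30.2% and 36.7% at full depth. At least 1 of the 3 was found in 65.4% and 67.9% of thinned proximal cells and in 88.7% and 89.2% at full depth. Proximal cells with neither Fbp1, Pck1 nor G6pc at full depth made up 11.3% and 10.8%. At least 1 of Hk1 and Hk2 was present in 8.91% and 15.7% of proximal cells at full depth, against 73.1% and 70.3% of progenitors.

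Genes whose level across the 14 cell types was most like that of each member were named by Pearson's r of log2(CPM + 5), averaged over the libraries, among 7873 genes. The points share libraries and gates, and r is given as a description. For Fbp1, Pck1 and G6pc, which are high in proximal tubule only, r rests mainly on that cell type. G6pc was closest to Slc22a19, Slc13a1 and Slc22a29 (r from 0.998 to 0.999), and Pck1 to Slc13a1, Mettl7b and Slc34a1 (0.990 to 0.993), of which Slc34a1 was a gate marker. Fbp1 was closest to Slc7a13, Slc22a27 and Slc7a12 (0.987 to 0.991). Pfkp was closest to Mgrn1 (0.941), Aldoa to Slc25a11 (0.962) and Ldha to Pgam1 (0.808), a glycolytic mutase. Hk1, Hk2 and Pkm had no gene above 0.872, and their closest were Pttg1 (0.872), Cse1l (0.853) and Abcc1 (0.817). Among the members, Pck1 and G6pc had an r of 0.993 and Hk1 and Hk2 one of -0.06.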

How the data were processed

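The authors deposited raw UMI counts per gene and barcode for 2 libraries, with all barcodes kept. The counts were made with Cell Ranger 4 per the file headers and with Cell Ranger 6.0.1 on mm10 per the submitters' processing notes, and which of these applies was not settled. Whether a library is 1 animal or a pool is not given in the sources used here. The libraries held 200331687 and 173166168 UMIs over all barcodes.

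A barcode was kept as a cell at 3000 UMIs or more, 500 genes or more and a mitochondrial share of 20% or less. A cell met a gate with at least 3 positive markers. A marker was positive with at least 1 UMI and more UMIs than 10% free RNA would give (Poisson p under 0.05), the free RNA profile being taken from barcodes under 100 UMIs. The precursor gate also required that the proximal gate was not met. Cells of more than 1 gate were left out, which stood in for doublet removal, and Scrublet (in scanpy 1.11.5) was an alternative. Scrublet, set to remove 245 and 142 cells in all, took 163 and 100 of the 1020 and 1070 cells of more than 1 gate. Whether the rest were cells between 2 types was not tested.

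Counts were summed per library and gate where both libraries had at least 20 cells, giving 28 sums of 14 cell types. Erythroid and urothelial cells were fewer and were not fitted. All sums entered 1 edgeR 4.0.16 quasi-likelihood fit in R 4.3.3, with TMM scaling, edgeR's filter on low counts and the library as a block. The pairing comes from the libraries themselves, since each gave all of its cell types. The fit held 16738 genes and had 13 residual degrees of freedom. P-values were adjusted by the Benjamini-Hochberg method over 16643 genes, leaving out 95 gate markers, with a threshold of 0.05. The SE is the log2 fold change divided by the root of its F statistic. TMM moved the contrast of proximal tubule with progenitors by 0.144 (log2) on average from the CPM scale. The test was first tested on simulated data.

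The members and the lists were chosen with earlier results of these data known. Named genes were the 9 members, every listed gene past the threshold with a log2 fold change of at least 2 between proximal tubule and progenitors, and the isoenzymes of each member's step, of which some are not reported here. A few others were named after their values were seen (Slc2a1 and Hif1a). The lists held glycolysis, gluconeogenesis, transport, regulators, hypoxia response, pentose phosphate and glycogen genes. For shares, cells were thinned to 3000 UMIs. Intervals are exact (Clopper-Pearson) at 95%, the limit beside a share of 0 is 3 counts of the total, and both cover counting error only.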

Additional observations from a re-analysis of the deposited data

How the results depend on the processing

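All 9 calls between proximal tubule and progenitors kept their direction and their side of the threshold under the 12 alternatives tested. These were DESeq2 size factors, the DESeq2 1.42.0 Wald test, no filter on low counts, no replicate block, a fit of these cell types alone, minimum depths of 6000 and 20000 UMIs, at most 10% mitochondrial UMIs, Scrublet, 1 gate marker more, thinning to 3000 UMIs and subtraction of free RNA. Over these the log2 fold change of Hk2 ranged from -5.87 to -4.17, that of G6pc from 5.21 to 7.31 and that of Ldha from 0.80 to 1.16. The highest adjusted p was 0.0018. The free RNA subtracted was the estimate made without the 5% of cells of each type highest in haemoglobin share. With 1 library no test is possible, and the single-library values of Ldha were 1.39 and 0.75.

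Of the other cell types against progenitors, 59 of 108 comparisons passed. At least 20000 UMIs left 29 calls of 72, as fewer cell types reached 20 cells, and 5 calls were lost among those still tested. Without the replicate block there were 49 calls of 108, and 99 of 108 against proximal tubule, where the blocked fit gave 100. Thinning gave 45 and 93 calls. With 1 gate marker more, precursors were too few to fit. With at most 10% mitochondrial UMIs, distal tubule and intercalated cells were too few. By the criteria used no result was counted as reversed, but some differences that did not pass the test changed sign. That of Hk2 between proximal tubule and endothelium ranged from -0.62 to 0.90. Over all results and settings, 614 values were unchanged by the criteria used, 53 kept their direction but lost the threshold and 27 moved, of which most were shares of cells without thinning. Low depth limits G6pc most, at no more than 15 counts per cell type outside proximal tubule.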

Other observations

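Pentose phosphate and glycogen genes were also compared between proximal tubule and progenitors. Of 7 pentose phosphate genes, 4 were higher in proximal tubule, 2 were lower and 1 did not pass, with a median log2 fold change of 0.57. Over all genes tested, 62.4% were called in this comparison, 30.8% higher and 31.7% lower. Taldo1, a transaldolase of the branch that exchanges sugars with glycolysis, had 81.1 and 94.0 CPM in progenitors and 186 and 198 CPM in proximal tubule (log2 fold change 1.29, adjusted p = 5.4e-08). G6pdx, the first enzyme of the oxidative branch, did not pass (log2 fold change 0.02, adjusted p = 0.936).

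Of 10 glycogen genes, 5 were higher, 3 were lower and 2 did not pass, with a median of 0.51. The share called over all genes was 62.4%. Pgm1, which links glycogen to glucose 6-phosphate, was higher (11.8 and 13.3 against 60.3 and 83.7 CPM, log2 fold change 2.65, adjusted p = 1.6e-12). The glycogen phosphorylases differed in direction. The muscle form Pygm fell by 2.88 (adjusted p = 5.9e-10) and the brain form Pygb by 1.68 (adjusted p = 3.8e-09), while the liver form Pygl was higher by 1.45 (adjusted p = 5.3e-06). The genes with smaller changes were chosen for mention after their values were seen.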
